A study of Mus musculus with 4 samples.

Results

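The replication-dependent histone genes encode the linker histone H1 and the core histones H2A, H2B, H3 and H4 that package DNA as it is copied. They were taken as the rows of the deposited table whose gene symbol begins with Hist1h, Hist2h, Hist3h or Hist4h, which gave 70 genes of 49568 listed. By type they comprised 6 H1, 20 H2A, 19 H2B, 12 H3 and 13 H4 genes. RNA of purified mouse migrasomes (2 libraries) was compared with RNA of cytosol (2 libraries) by RNA sequencing. Migrasomes are large vesicles that grow on the retraction fibres left behind by a migrating cell. The sources used here do not give the cell type, genotype, treatment or age behind either group. The labels call the extracted molecule total RNA and do not say whether polyadenylated RNA was selected.

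Replication-dependent histone genes lie in clusters as many near-identical copies and are transcribed mainly in S phase. Their mRNAs have no introns and end in a conserved stem-loop in place of a poly(A) tail. The stem-loop binding protein Slbp holds this hairpin during 3′ end cutting, export and translation, and the mRNAs are degraded when DNA synthesis stops. Replacement histones such as H2afz and H3f3a are made throughout the cell cycle, mostly from ordinary polyadenylated mRNAs.

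The hairpin is shown because most members share it and few other mRNAs have it. In the GENCODE M21 transcript models (GRCm38) a perfect stem of 6 bases around a loop of 4 was sought. Only stems that began with GG and loops that began with T were taken, so the search set these letters. Such a hairpin was found after the stop codon in 46 of the 70 members. Each sequence below was read on the strand of the gene, 5′ to 3′, with the 16 bases of stem, loop and stem in capitals.
Hist1h1c: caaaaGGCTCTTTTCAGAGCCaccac
Hist2h2ac: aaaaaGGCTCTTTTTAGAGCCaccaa
Hist1h2be: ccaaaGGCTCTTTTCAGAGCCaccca
Hist1h2bb: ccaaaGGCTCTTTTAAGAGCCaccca
Hist1h3c: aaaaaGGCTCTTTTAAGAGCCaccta
Hist1h3g: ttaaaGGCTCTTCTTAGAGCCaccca
Hist1h4h: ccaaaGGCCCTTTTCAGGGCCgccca
Hist1h4f: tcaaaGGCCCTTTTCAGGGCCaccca
Hist1h4b: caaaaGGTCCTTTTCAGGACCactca
Hist2h4: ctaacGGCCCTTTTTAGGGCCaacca
H2afx: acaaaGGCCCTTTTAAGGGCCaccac

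The stem differed between H4 and the other types. All 34 hairpins of H1, H2A, H2B and H3 genes carried the stem GGCTCT, whereas 10 of 12 H4 hairpins carried GGCCCT and 2 carried GGTCCT. The loop was TTTC in 35 of the 46 members, TTTA in 6, TTTT in 3, and TCTC and TCTT in 1 each. The hairpin began 21 to 58 bases after the stop codon (median 31).

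The hairpin was rare outside the group. Among models with at least 80 annotated bases after the stop codon, it lay in the first 80 bases of 36 of 40 members (90%) and of 16 of 20380 other protein-coding genes (0.0785%). Of the 21 protein-coding members without it, 15 had models with few or no bases after the stop codon, so the window did not hold the place where it would lie. Among 11 replacement variant genes, only H2afx, the variant of H2A phosphorylated at DNA breaks, had one. The match is to these letters, on the transcribed strand, and is a description of the sequence.

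Reads assigned to genes numbered 5228713 and 5171092 in migrasome replicates 1 and 2, and 7529136 and 8608369 in cytosol replicates 1 and 2. Histone members took 35728 and 46922 of these reads in the migrasome libraries (0.683% and 0.907%), and 117161 and 143013 in the cytosol libraries (1.56% and 1.66%). Levels are given as deposited, in normalised read counts. A gene with no read lies below 3 reads, a value of 4.24 and 3.95 in the migrasome libraries and of 2.33 and 2.06 in the cytosol libraries, for counting error only. Differences are migrasome minus cytosol on the scale of log2(value + 1), with a standard error (SE) and an adjusted p (Benjamini-Hochberg) from limma over 10860 tested genes, of which 52 were members. No label tells whether replicates were grown separately, and the p-values therefore cover only the spread among these 4 libraries, which may be technical. Values are relative to the other RNA of a library, and fewer migrasomes that carry an RNA cannot be told apart from fewer copies in each.

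Histone mRNAs were lower in migrasomes than in cytosol across all 5 types. Of the 52 tested members, 26 fell past an adjusted p of 0.05, 0 rose and 26 did not pass. Over all tested genes 17.7% were called lower and 8.68% higher. At an unadjusted p of 0.05, 42 members were lower and 0 were higher. The edgeR and DESeq2 tests on recovered reads likewise called 0 members higher, and called 29 and 28 lower, beside backgrounds of 19.0% and 14.7%.

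All 52 differences were negative, against 50.2% of all tested genes. Their median was -0.78, with a range of -2.60 to -0.21, while all tested genes had a median of -0.00 and quartiles of -0.65 and 0.43. Both migrasome libraries lay below both cytosol libraries in 44 of 52 members (36.3% of all tested genes). The other 8 members overlapped, and 0 had both migrasome libraries on top, against 33.3% of all tested genes. The summed value of all members was 50527 and 61753 in the migrasome libraries, against 90888 and 98088 in the cytosol libraries, a fold of 0.594 between the group means. The 2 groups of sums did not overlap, and the exact two-sided permutation test gave p = 0.333, the smallest that 2 against 2 libraries allow.

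**Figure D1:**
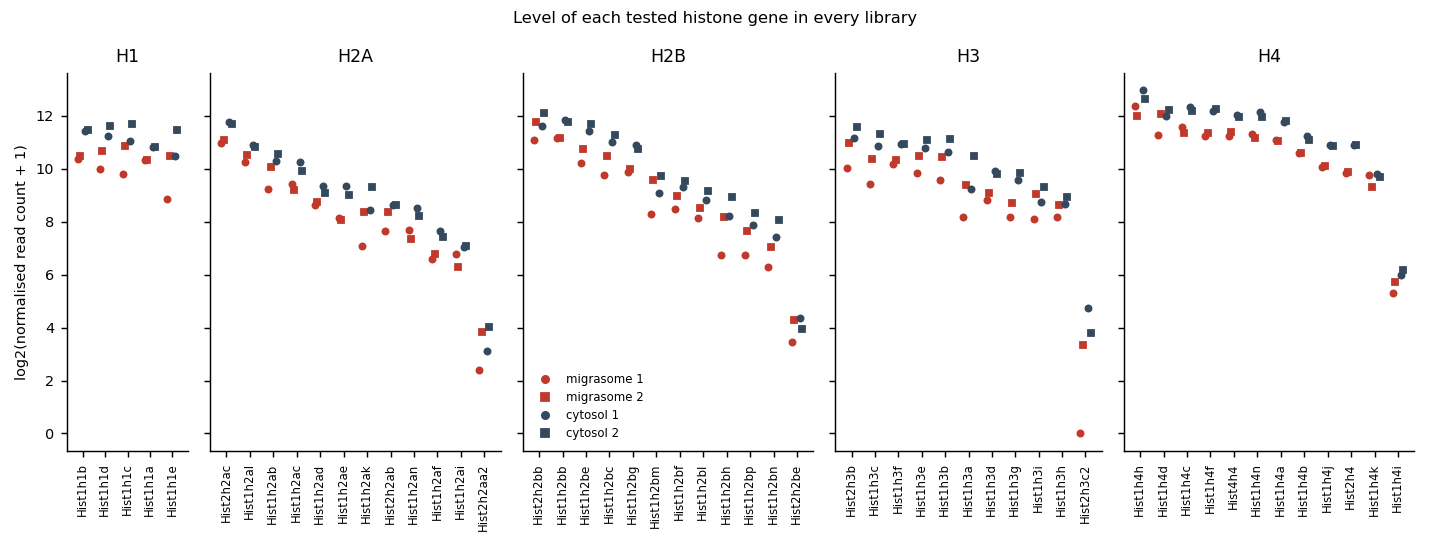
Level of each of the 52 tested histone genes as log2(normalised read count + 1), in 1 panel per histone type, ordered by mean level. Red marks are migrasome libraries, dark marks are cytosol libraries, circles are replicate 1 and squares replicate 2. The red marks lie below the dark ones in 44 genes, and the lowest mark of all is Hist2h3c2 in migrasome replicate 1, which had 0 reads.

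Few libraries stood behind these calls, and the number of members called depended on which were used. Most of the calls ended when either cytosol library was left out. With 1 library left out, the members' median was -0.59 without migrasome replicate 1 and -0.96 without migrasome replicate 2. It was -0.80 without cytosol replicate 1 and -0.71 without cytosol replicate 2. The median of all genes was -0.03 to -0.00 in these fits. A correction for GC content left 12 members lower, beside 1609 of 10618 genes. The members' median was then -0.44, beside 0.15 for all genes. The members are GC-rich, with a median of 57.2% against 49.4% over all tested genes. The GC correction turned 6 members positive, none of them past the threshold, and ended 14 of the 26 calls. Among these were Hist1h1c (-0.75), Hist1h2bb (-0.33), Hist1h3f (-0.59), Hist1h4c (-0.67), Hist1h4f (-0.52) and Hist4h4 (-0.62), and the others are given with their types. Without migrasome replicate 1, 4 members turned positive, and without migrasome replicate 2, 1 did, none of them past the threshold. Quantile normalization ended the calls of Hist1h2af, Hist1h2an and Hist1h2bn, and the length correction those of Hist1h2ac and Hist4h4. Without the filter on low values 10 of 67 members were called lower, beside 1348 of 19077 genes. Without a variance trend in limma 10 of 52 were called lower, beside 1671 of 10860 genes. Only 3 members, Hist1h1b, Hist1h3g and Hist2h4, were called lower under every alternative tried.

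**Figure D2:**
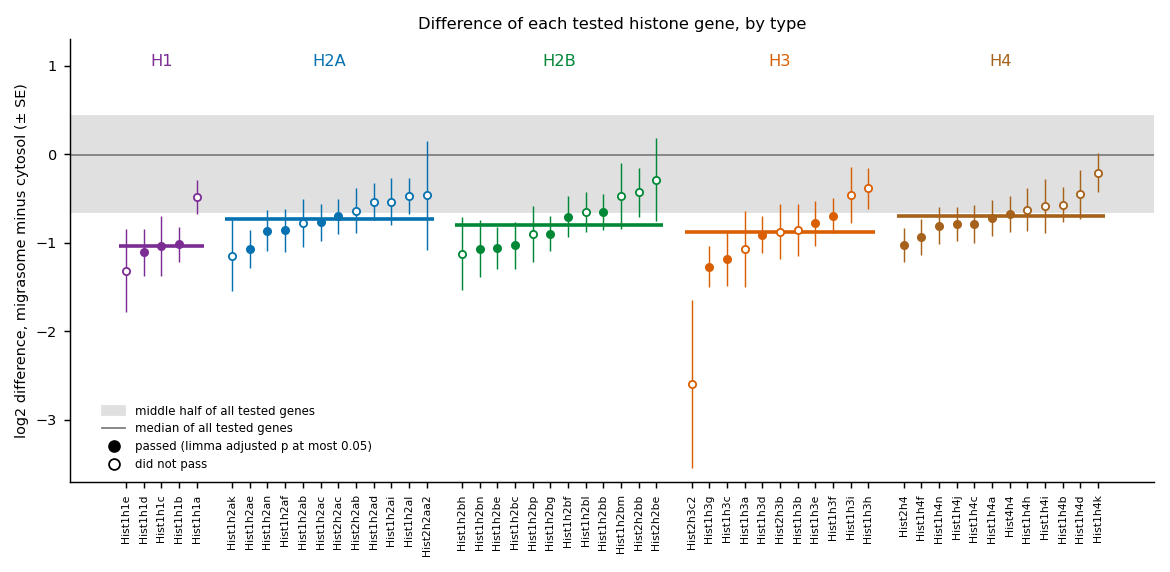
Difference in log2(value + 1), migrasome minus cytosol, of each tested histone gene, with whiskers for ± SE and coloured lines for the median of each type. Filled points passed the limma test at an adjusted p of 0.05 and the grey band spans the quartiles of all tested genes; all 52 points lie below 0, between -2.60 and -0.21.

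Linker histone H1 binds where DNA enters and leaves the nucleosome. Of 6 H1 genes 5 were tested, 3 fell and 2 did not pass, with a median of -1.03, which was -0.51 without migrasome replicate 1 and -1.46 without migrasome replicate 2. Hist1h1b (chr13:21779883-21780625 in GRCm38, minus strand) had 1308 and 1438 in the migrasome libraries, against 2750 and 2802 in the cytosol libraries. The gap between the groups was wider than either group's spread, and Hist1h1b fell by 1.02 ± 0.20 (SE, limma adjusted p = 0.0055). Its exons share no 50-base window with another annotated gene.

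Hist1h1c had 898 and 1866 in migrasomes, against 2128 and 3298 in cytosol, and Hist1h1d had 1007 and 1637, against 2434 and 3151. Replicate 2 was the higher library of both groups in both genes, and the groups did not overlap. Hist1h1c fell by 1.03 ± 0.34 (limma adjusted p = 0.048) and Hist1h1d by 1.11 ± 0.26 (limma adjusted p = 0.014). The call of Hist1h1c ended without migrasome replicate 1 (log2 difference -0.51) and that of Hist1h1d without cytosol replicate 2 (-0.92), as did that of Hist1h1c (-0.72).

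Hist1h1e showed the widest spread of the H1 genes. It had 461 and 1413 in migrasomes, against 1416 and 2850 in cytosol, so that migrasome replicate 2 and cytosol replicate 1 were almost level. Its difference of -1.31 ± 0.47 did not pass (limma adjusted p = 0.063). Exons of Hist1h1e overlap those of Hist1h2be in the annotation, and the sources used here do not say how reads in the shared stretch were counted. Hist1h1a had 1280 and 1296 in migrasomes, against 1804 and 1795 in cytosol, and its -0.48 ± 0.19 did not pass either (limma adjusted p = 0.090). Hist1h1t, the H1 gene of the testis, had at most 1 read in any library and was not tested. The median of the H1 genes was -1.29 without cytosol replicate 1 and -0.81 without cytosol replicate 2.

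Core histone H2A pairs with H2B on the outer face of the nucleosome. Of 20 H2A genes 12 were tested, 5 fell and 7 did not pass, with a median of -0.74 and a range of -1.14 to -0.46. The median was -0.27 with the GC correction. Hist2h2ac (chr3:96220361-96220880, minus strand), the most abundant, had 2000 and 2175 in migrasomes, against 3493 and 3294 in cytosol. The groups did not overlap, and Hist2h2ac fell by 0.70 ± 0.20 (limma adjusted p = 0.030). The call ended without either cytosol library (-0.66 and -0.74) and with the GC correction (-0.27). The next, Hist1h2al, which GENCODE lists as a pseudogene, had 1223 and 1457 in migrasomes, against 1884 and 1821 in cytosol, and its -0.47 ± 0.20 did not pass (limma adjusted p = 0.11).

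The other H2A genes were spread over a wide range of levels. Hist1h2ab had 604 and 1067 in migrasomes, against 1268 and 1490 in cytosol (-0.78 ± 0.27, limma adjusted p = 0.060). Hist1h2ak gave the most negative difference of the type, with 136 and 332 in migrasomes against 349 and 634 in cytosol (-1.14 ± 0.40, limma adjusted p = 0.061), and the 2 closest libraries differed by little. Hist2h2ab, with 202 and 325 against 398 and 399, did not pass (-0.63 ± 0.26, limma adjusted p = 0.091). Hist2h2aa2 was read near the floor, at 4.24 and 13.2 in migrasomes and 7.76 and 15.1 in cytosol, and the groups overlapped (-0.46 ± 0.62, limma adjusted p = 0.59). Hist1h2ac, Hist1h2ae, Hist1h2af and Hist1h2an were the other H2A genes that fell, by 0.77 to 1.07. The GC correction ended the calls of Hist1h2af (-0.29) and Hist1h2an (-0.28). Without cytosol replicate 1 all 4 of these calls ended, at -0.61, -0.91, -0.74 and -0.71, and without cytosol replicate 2 those of Hist1h2ac (-0.93), Hist1h2af (-0.98) and Hist1h2an (-1.01) ended. The H2A median was -0.57 without migrasome replicate 1 and -0.85 without migrasome replicate 2. It was -0.68 without cytosol replicate 1 and -0.70 without cytosol replicate 2.

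Core histone H2B gave 12 tested genes of 19, of which 6 fell and 6 did not pass, with a median of -0.80, which was -0.46 without migrasome replicate 1 and -0.46 with the GC correction. Hist1h2be had 1199 and 1728 in migrasomes, against 2753 and 3270 in cytosol. The groups stood well apart, and Hist1h2be fell by 1.06 ± 0.24 (limma adjusted p = 0.011). Its exons overlap those of Hist1h1e. Hist1h2bb had 2270 and 2281 in migrasomes, against 3703 and 3442 in cytosol, and fell by 0.65 ± 0.20 (limma adjusted p = 0.040). Both calls ended without cytosol replicate 2 (log2 differences of -0.93 and -0.70), and that of Hist1h2bb also without cytosol replicate 1 (-0.60).

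The most abundant H2B gene did not pass. Hist2h2bb (chr3:96269752-96270132, plus strand) had 2182 and 3472 in migrasomes, against 3136 and 4377 in cytosol, so the groups overlapped, and its -0.43 ± 0.27 did not pass (limma adjusted p = 0.26). Its exon lies wholly inside 2 other gene models. Hist2h2be was near the floor, at 9.90 and 18.4 in migrasomes and 19.4 and 14.4 in cytosol (-0.28 ± 0.47, limma adjusted p = 0.66). Hist1h2bc, Hist1h2bf, Hist1h2bg and Hist1h2bn fell by 0.70 to 1.06. The call of Hist1h2bf was marginal: it ended with a pseudocount of 0.5 (limma adjusted p = 0.0503), in DESeq2 (-0.66), with the GC correction (-0.30) and without migrasome replicate 1 (-0.45), cytosol replicate 1 (-0.81) or cytosol replicate 2 (-0.59). That of Hist1h2bn ended with the GC correction (-0.60) and without migrasome replicate 1 (-0.69) or cytosol replicate 2 (-0.73). The call of Hist1h2bc ended without cytosol replicate 2 (-0.89) and that of Hist1h2bg without cytosol replicate 1 (-0.82). The H2B median was -1.03 without migrasome replicate 2, -0.82 without cytosol replicate 1 and -0.69 without cytosol replicate 2.

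Core histone H3 joins H4 in the tetramer at the centre of the nucleosome. Of 12 H3 genes 11 were tested, 5 fell and 6 did not pass, with a median of -0.87, which was -0.47 without migrasome replicate 1 and -1.28 without migrasome replicate 2. Hist1h3g (chr13:23535422-23535951, plus strand) had 291 and 416 in migrasomes, against 764 and 922 in cytosol. Every cytosol value was well above every migrasome value, and Hist1h3g fell by 1.27 ± 0.24 (limma adjusted p = 0.0043), a difference of -0.82 with the GC correction. Hist1h3c had 689 and 1316 in migrasomes, against 1849 and 2539 in cytosol, and fell by 1.19 ± 0.30 (limma adjusted p = 0.019). Its call ended without cytosol replicate 2 (-0.96), and without migrasome replicate 1 it fell by less (-0.72).

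Hist1h3f changed by less, with 1160 and 1278 in migrasomes against 1974 and 1966 in cytosol, and fell by 0.69 ± 0.20 (limma adjusted p = 0.028). Its libraries agreed closely within each group, and the call still ended without either cytosol library (-0.69 and -0.70). Hist2h3b, the most abundant H3 gene, had 1031 and 2011 in migrasomes, against 2291 and 3034 in cytosol (-0.87 ± 0.31, limma adjusted p = 0.060). Like that of Hist2h2bb beside it, its exon overlaps another gene model. Hist1h3h, at 291 and 395 against 401 and 489, did not pass (-0.38 ± 0.23, limma adjusted p = 0.24).

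The most negative difference of all members was that of Hist2h3c2, whose values were 0 and 9.21 in migrasomes and 25.6 and 13.0 in cytosol. It rests on a library with 0 reads, depends on the pseudocount, and did not pass (-2.60 ± 0.95, limma adjusted p = 0.068). Hist1h3d and Hist1h3e were the other H3 genes that fell, by 0.91 and 0.78. The call of Hist1h3e ended with the GC correction (-0.56) and without migrasome replicate 1 (-0.45), cytosol replicate 1 (-0.94) or cytosol replicate 2 (-0.62), and that of Hist1h3d without cytosol replicate 1 (-0.85). The H3 median was -1.07 without cytosol replicate 1 and -0.67 without cytosol replicate 2.

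Core histone H4 held the most abundant members. Of 13 H4 genes 12 were tested, 7 fell and 5 did not pass, with a median of -0.70 and a range of -1.03 to -0.21. The median was -0.41 with the GC correction. Hist2h4 (chr3:96261682-96263311, minus strand) had 911 and 948 in migrasomes, against 1885 and 1905 in cytosol. Replicates of a group differed by little beside the gap between groups, and Hist2h4 fell by 1.03 ± 0.19 (limma adjusted p = 0.0046). Nearly all of its exon sequence, 99.0% of 50-base windows, occurs in no other gene.

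The same direction held for the abundant H4 genes of the large cluster. Hist1h4h (chr13:23531050-23531519, plus strand), the member with the highest mean, had 5264 and 4081 in migrasomes, against 7962 and 6405 in cytosol, and its -0.62 ± 0.24 did not pass (limma adjusted p = 0.078). Hist1h4c had 3046 and 2608 in migrasomes, against 5156 and 4597 in cytosol, and fell by 0.79 ± 0.21 (limma adjusted p = 0.024). Hist1h4f had 2408 and 2593 in migrasomes, against 4662 and 4875 in cytosol, and fell by 0.93 ± 0.20 (limma adjusted p = 0.010). In all 3 genes the groups stood apart. The calls of Hist1h4c and Hist1h4f ended without either cytosol library, at -0.71 and -0.87 for Hist1h4c and at -0.96 and -0.90 for Hist1h4f, without cytosol replicates 1 and 2 in that order.

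Hist4h4, on chromosome 6 apart from the other clusters, had 2431 and 2680 in migrasomes, against 4151 and 4005 in cytosol. It fell by 0.68 ± 0.20 (limma adjusted p = 0.037), and that call too ended without either cytosol library (-0.65 and -0.70). The H4 genes that overlapped between groups were Hist1h4d, with 2473 and 4243 in migrasomes against 4109 and 4780 in cytosol (-0.45 ± 0.27, limma adjusted p = 0.24), and Hist1h4k, with 867 and 638 against 887 and 829 (-0.21 ± 0.22, limma adjusted p = 0.49). Hist1h4a, Hist1h4j and Hist1h4n fell by 0.72 to 0.81. All 3 calls ended without cytosol replicate 1 (-0.73, -0.78 and -0.72) and without cytosol replicate 2 (-0.71, -0.80 and -0.89), and those of Hist1h4a and Hist1h4n ended with the GC correction (-0.40 and -0.42). The H4 median was -0.75 without migrasome replicate 1 and -0.74 without migrasome replicate 2. It was -0.69 without cytosol replicate 1 and -0.74 without cytosol replicate 2.

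Near-identical copies make the split of reads between single members uncertain, so the members were also summed by type. H1 genes summed to 4954 and 7652 in migrasomes, against 10532 and 13896 in cytosol, a log2 difference of -0.97. H2A sums were 5944 and 7012, against 10619 and 10294 (-0.70). H2B sums were 8703 and 12195, against 15927 and 18542 (-0.74).

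The 2 remaining types stood the same way. H3 sums were 6156 and 9984 in migrasomes, against 12632 and 16306 in cytosol (-0.87). H4 sums were 24770 and 24911, against 41177 and 39050 (-0.69). In each of the 5 types both migrasome sums lay below both cytosol sums, and each exact two-sided permutation test gave p = 0.333, the smallest possible.

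**Figure D3:**
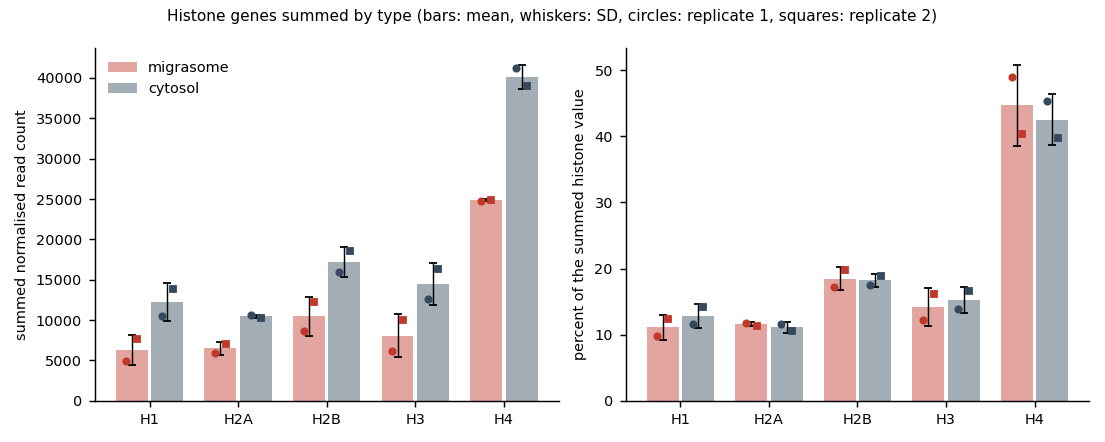
Left, normalised read counts summed over all members of each histone type; right, the same sums as a percent of all members. Bars are means of 2 libraries, migrasome left of cytosol, whiskers are SD, circles replicate 1 and squares replicate 2. Both migrasome sums lie below both cytosol sums in each type, while the shares overlap in each, with H4 at 49.0% and 40.3% in migrasomes and 45.3% and 39.8% in cytosol.

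The make-up of the histone mRNA was not shown to differ between migrasomes and cytosol. H4 took 49.0% and 40.3% of the summed member value in migrasomes, against 45.3% and 39.8% in cytosol. H2B took 17.2% and 19.7%, against 17.5% and 18.9%, and H3 took 12.2% and 16.2%, against 13.9% and 16.6%. The groups overlapped in all 3 types.

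H1 took 9.80% and 12.4% in migrasomes, against 11.6% and 14.2% in cytosol, and H2A took 11.8% and 11.4%, against 11.7% and 10.5%. The exact two-sided permutation test gave p = 0.667 for H1, H2A, H3 and H4 and p = 1 for H2B, with 2 libraries a group. Per kilobase of coding sequence (exon length for pseudogenes), H4 genes summed to 79391 and 79842 in migrasomes, against 131977 and 125159 in cytosol. H2B came next with 22819 and 31962, against 41750 and 48594, and H1 was lowest with 7556 and 11680, against 16033 and 21177.

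The genomic clusters showed the same direction. Hist1, on mouse chromosome 13, held 56 members, of which 43 were tested and 23 fell, with a median of -0.79. Its stretch at chr13:23531050-23934851 held 31 members, 28 tested and 18 lower (median -0.86). The stretch at chr13:21715763-22043676 held 24, with 14 tested and 5 lower (median -0.72). The remaining member, the pseudogene Hist1h2al, lies outside both stretches, at chr13:51202727-51203065, and did not pass (-0.47). Hist2, at chr3:96219865-96270132, had 8 tested members of 10 and 2 that fell (25%), with a median of -0.67. Over all tested genes 17.7% were called lower. None of the 3 Hist3 members on chromosome 11 passed the filter. The summed values differed by -0.77 for Hist1, -0.68 for Hist2 and -0.68 for Hist4h4 alone, each with an exact p of 0.333, and no test set one cluster against another.

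Neighbouring genes that share a start region were described after their values were seen. In 15 places 2 members begin next to each other on opposite strands, most of them an H2A beside an H2B gene, and in 8 pairs both were tested. The difference within a pair was -0.43 to 0.26, with a median size of 0.17. Pairs were not compared with unpaired members, and the SD over all 52 tested members was 0.36. The pair of Hist2h2ac with Hist2h2be (-0.42) rests on a gene near the floor, with a mean value of 15.5. Across the 8 pairs Pearson's r was 0.59 and Spearman's rho 0.74, a description of genes that share libraries. Hist1h2ac and its partner Hist1h2bc, for example, fell by 0.77 and 1.03, and Hist1h2ae and Hist1h2bg fell by 1.07 and 0.90.

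The differences were negative both in members with a larger and in members with a smaller share of exon windows of their own. Members with at least 50% of their exon windows found in no other gene numbered 28 among those tested, of which 18 fell, with a median of -0.90. Of the 24 with a smaller share, 8 fell (33.3%, beside 17.7% of all tested genes), with a median of -0.70. Windows shared with overlapping gene models also lower this share. Hist2h2bb, at 0%, shared no window with another member. Across the 52 members the log2 difference had Spearman's rho of -0.26 with that share, -0.34 with exon length, 0.19 with GC content and 0.01 with mean level, descriptions over genes of the same 4 libraries.

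Transcript models that run past the hairpin were compared with those that stop near it. Where the model held a hairpin and ended within 200 bases of it, 10 of 19 tested members fell (median -0.78). Where it ran on for more than 200 bases, 11 of 16 fell (median -0.85). Where the model held no hairpin 5 of 17 fell (29.4%, median -0.63), beside 17.7% of all tested genes. The gene-level values cannot tell reads that end at the hairpin from reads of longer, polyadenylated forms.

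The 18 untested members held almost no reads. Their highest value was 9.31, with at most 12 reads, and 3 had 0 reads in every library. The 52 tested members held 99.97% of all member reads. Hist2h2aa1 and Hist2h3c1 had no exon window of their own among the 50-base windows, and the table gave them at most 2 reads, so their zero or near-zero values say little about the genes. Hist1h2aa and Hist1h2ba, genes of the male germ line, had at most 4 reads in any library.

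Members with a larger offset between replicates in 1 group tended to have a larger offset in the other. Replicate 2 was above replicate 1 in both groups in 29 of 52 members, against 30.2% of all tested genes, in 4 of 5 H1, 4 of 12 H2A, 9 of 12 H2B, 8 of 11 H3 and 4 of 12 H4 members. No test set one type against another. The median offset, replicate 2 minus replicate 1, was 0.43 in migrasomes and 0.05 in cytosol on the log2 scale. Across members the offsets of the 2 groups had Spearman's rho of 0.71 and Pearson's r of 0.39, with Hist2h3c2 far from the other points; over all tested genes rho was 0.23. The labels do not say that libraries with the same number share a culture, and the source of this offset was not tested.

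**Figure D4:**
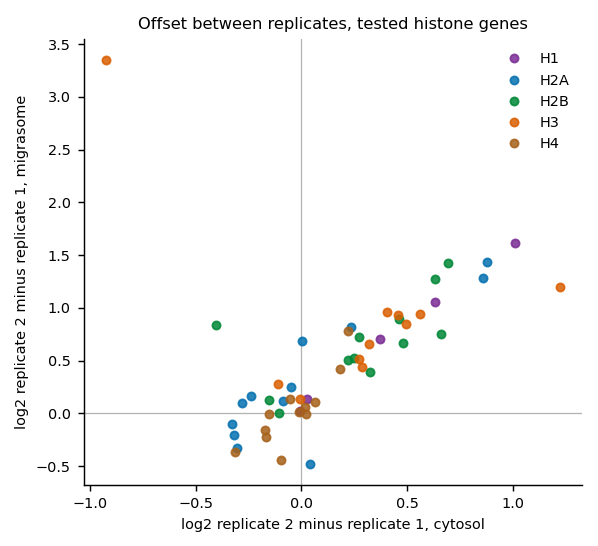
Replicate 2 minus replicate 1 on the log2(value + 1) scale for each of 52 tested histone genes, in migrasome (vertical axis) and in cytosol (horizontal axis), coloured by type. More points lie in the upper right, where replicate 2 is higher in both groups (29 of 52), than elsewhere; the highest point, at the far left, is Hist2h3c2.

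Most replacement histone genes did not pass the test in either direction. Of 11 listed 9 were tested, 1 rose and 1 fell, beside 8.68% and 17.7% of all tested genes, with a median of 0.25. The median was 0.035 without migrasome replicate 1, 0.13 without either cytosol library, 0.0046 under quantile normalization and -0.021 with libraries scaled to the same total. H3f3a, a gene for the H3 replacement variant, had 2377 and 1689 in migrasomes, against 1172 and 1040 in cytosol, and rose by 0.86 ± 0.23 (limma adjusted p = 0.022). H3f3b, which encodes the same protein, had 3985 and 4088, against 3696 and 4306, and the groups overlapped (0.02 ± 0.21, limma adjusted p = 0.96). H2afz, the replacement H2A at many promoters, had 3992 and 3988, against 2776 and 3251 (0.41 ± 0.21, limma adjusted p = 0.17).

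H2afx, the replacement gene with a hairpin of its own, was the one that fell. It had 1047 and 1712 in migrasomes, against 2079 and 2777 in cytosol, and fell by 0.84 ± 0.27 (limma adjusted p = 0.044). Its call ended without migrasome replicate 1 (-0.49), without cytosol replicate 2 (-0.63) and with the GC correction (-0.39). The call of H3f3a ended when libraries were scaled to the same total and without cytosol replicate 1 (0.95) or cytosol replicate 2 (0.77). Both migrasome libraries lay above both cytosol libraries in 4 of the 9 tested variants and below them in 2, H2afx and Cenpa. Cenpa, in which no hairpin was found, had 587 and 640 in migrasomes, against 777 and 852 in cytosol. It did not pass (-0.41 ± 0.20, limma adjusted p = 0.15).

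Within each library, replication-dependent histone mRNA was set against replacement histone mRNA. The ratio of the sums was 3.52 and 4.30 in migrasomes, against 7.30 and 6.89 in cytosol, a log2 difference of -0.87. The summed replacement variants were 14367 and 14369 in migrasomes, against 12448 and 14230 in cytosol (0.11). Without H2afx, a choice made after the data were seen, the ratio was 3.79 and 4.88, against 8.77 and 8.56 (-1.01). The groups of ratios did not overlap, and the exact two-sided permutation test gave p = 0.333, the smallest possible.

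None of the tested factors that cut, translate and degrade histone mRNA was called lower, though the direction was not uniform. Both migrasome libraries lay above both cytosol libraries in 10 of these genes and below them in 4. Those 4, Lsm10 (-0.74), Slbp (-0.39), Casp8ap2 (-0.38) and Lsm1 (-0.32), did not pass. Of 23 listed 21 were tested, 3 rose and 0 fell, beside 8.68% and 17.7% of all tested genes, with a median of 0.34. The median was 0.14 without migrasome replicate 1, 0.49 without migrasome replicate 2 and 0.07 with the same total. Slbp had 536 and 596 in migrasomes, against 680 and 809 in cytosol, and did not pass (-0.39 ± 0.21, limma adjusted p = 0.18). Eri1, the exonuclease that trims the histone mRNA end, had 1204 and 1079, against 924 and 1032 (0.22 ± 0.20, limma adjusted p = 0.41). Upf1, a helicase needed for histone mRNA decay, had 895 and 701, against 629 and 547 (0.43 ± 0.21, limma adjusted p = 0.15).

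The factors that rose were Cpsf3, Srrt and Snrpe. Cpsf3, the endonuclease that makes the cut, had 786 and 633 in migrasomes, against 329 and 361 in cytosol, and rose by 1.03 ± 0.21 (limma adjusted p = 0.0071). Srrt, a partner of the cap-binding complex, rose by 0.77 and Snrpe, a shared Sm protein, by 0.67. With libraries scaled to the same total 1 of the list rose and 1 fell, beside 322 and 2522 of 10860 genes. The list's median was 0.27 without cytosol replicate 1 and 0.30 without cytosol replicate 2.

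Npat, the coactivator that switches histone genes on in S phase, was the 1 of 4 listed transcription genes that fell, beside 17.7% of all tested genes. It had 93.3 and 89.5 in migrasomes, against 178 and 200 in cytosol, and fell by 1.04 ± 0.24 (limma adjusted p = 0.012). The call ended without cytosol replicate 1 (-1.12), without cytosol replicate 2 (-0.96) and under quantile normalization (-0.71). Hinfp, which binds H4 promoters, had 67.9 and 133 in migrasomes, against 175 and 145 in cytosol (-0.74 ± 0.33, limma adjusted p = 0.12).

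Histone chaperones and importins carry new histones into the nucleus and onto DNA, and none of them was called lower. Both migrasome libraries lay above both cytosol libraries in 17 of these genes and below them in 1, Daxx (-0.65), which did not pass. All 22 were tested, 6 rose and 0 fell, beside 8.68% and 17.7% of all tested genes. The list's median was 0.57, which was 0.30 with the same total and 0.31 under quantile normalization. Ssrp1, a subunit of the FACT complex, had 5029 and 3543 in migrasomes, against 2152 and 1994 in cytosol, and rose by 1.03 ± 0.23 (limma adjusted p = 0.011). Npm1, a nucleolar chaperone, had 29312 and 25033, against 14142 and 16374, and rose by 0.83 ± 0.26 (limma adjusted p = 0.042). Its call ended with the same total (0.56) and without either cytosol library (0.73 and 0.94), and its difference was 0 under quantile normalization. Nap1l1, Rbbp7, Rbbp4 and Ipo7 rose by 0.78 to 0.91. All 4 calls ended under quantile normalization (0.30, 0.49, 0.49 and 0.22) and without either cytosol library, and those of Nap1l1 and Ipo7 also without migrasome replicate 1 (0.53 and 0.47). With the same total 2 of the list rose and 1 fell, beside 322 and 2522 of 10860 genes. Under quantile normalization 2 rose, beside 1194 of 10860. The list's median was 0.39 without migrasome replicate 1 and 0.79 without migrasome replicate 2. It was 0.67 without cytosol replicate 1 and 0.60 without cytosol replicate 2.

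Other genes of S phase were either called higher or not called. All 26 listed were tested, 12 rose and 0 fell, beside 8.68% and 17.7% of all tested genes. The list's median was 0.58, which was 0.31 with the same total. Pola1, the catalytic subunit of DNA polymerase alpha, had 1844 and 1329 in migrasomes, against 691 and 638 in cytosol, and rose by 1.24 ± 0.22 (limma adjusted p = 0.0035). Mcm7, of the replicative helicase, had 1977 and 1792, against 984 and 1049, and rose by 0.89 ± 0.20 (limma adjusted p = 0.010). Rrm1, which makes deoxynucleotides, had 4947 and 3696, against 2236 and 2346, and rose by 0.90 ± 0.22 (limma adjusted p = 0.017). The calls of Mcm7 and Rrm1 ended without either cytosol library, and that of Rrm1 under quantile normalization (0.43). Among the others, Mcm2, Mcm4, Mcm5, Mcm6, Tyms, Rpa1, Lig1 and Prim1 rose by 0.67 to 0.92. Of these calls, that of Rpa1 ended under quantile normalization (0.52) and all the others with the same total (0.40 to 0.59). Without cytosol replicate 1 the differences of these genes were 0.54 to 0.87. Without the filter on low values 5 of the list rose, beside 393 of 19077 genes. Without a variance trend 4 rose, beside 483 of 10860 genes. The direction was not uniform, and the list's differences ranged from -0.81 to 1.24. Both migrasome libraries lay above both cytosol libraries in 18 of the 26 genes and below them in 3. Those 3, Ccne1 (-0.81), Ccne2 (-0.55) and Fen1 (-0.19), did not pass. Cdt1 (-0.51), Cdc6 (-0.16) and Rpa2 (-0.02) were also negative, with overlapping groups, and did not pass either. With the same total 4 of the list rose and 1 fell, beside 322 and 2522 of 10860 genes. Under quantile normalization 4 rose, beside 1194 of 10860. The list's median was 0.45 without migrasome replicate 1 and 0.72 without migrasome replicate 2. It was 0.48 without cytosol replicate 1 and 0.71 without cytosol replicate 2.

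**Figure D5:**
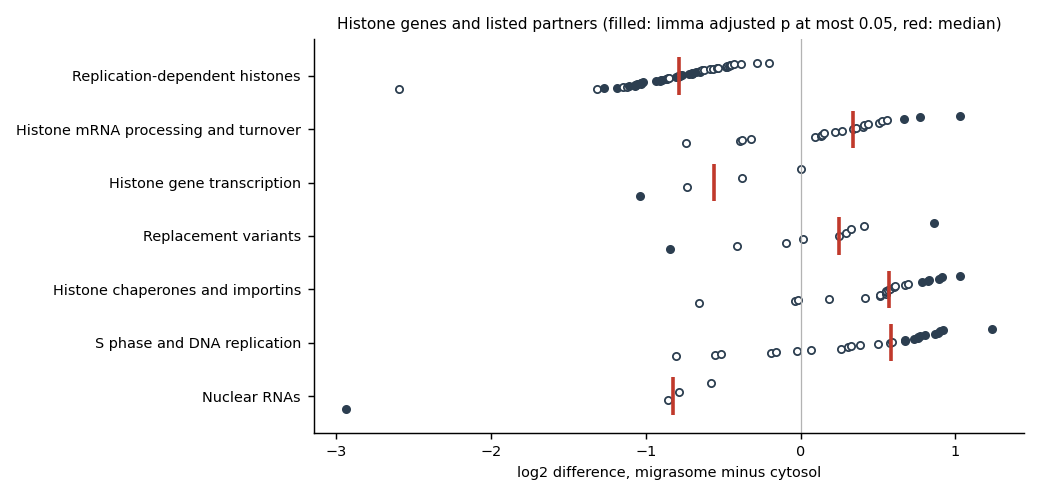
Log2 difference, migrasome minus cytosol, of the tested histone genes and of the listed partner genes, 1 point per gene, filled where the limma adjusted p was at most 0.05; red bars are medians. The histone genes lie below 0 with a median of -0.78, while the S phase genes have a median of 0.58 and the chaperones and importins 0.57.

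Nuclear RNAs were read as a check of the cytosol label. Malat1 had 5102 and 3882 in migrasomes, against 10534 and 5593 in cytosol, and did not pass (-0.79 ± 0.31, limma adjusted p = 0.084). Neat1, with 260 and 237 against 728 and 278, did not pass either (-0.86 ± 0.37, limma adjusted p = 0.11). Rn7sk, a small nuclear RNA without a poly(A) tail, had 6647 and 12733 in migrasomes, against 69225 and 71563 in cytosol, and fell by 2.94 ± 0.34 (limma adjusted p = 0.00055). Kcnq1ot1, with 60.8 and 51.3 in migrasomes against 100 and 70.6 in cytosol, did not pass (-0.58 ± 0.30, limma adjusted p = 0.16). Meg3 lay near the floor, higher in migrasomes, at 2.83 and 3.95 against 0.776 and 2.74, and was not tested. Of the 4 tested RNAs 1 was called lower, beside 17.7% of all tested genes. All 4 were present in the cytosol libraries and lower in migrasomes in value, as the histone genes were. Their part in the histone result was not tested.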

How the data were processed

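Per the submitters' processing notes, reads were handled with cutadapt, Trimmomatic, FastQC, STAR, HTSeq and DESeq on GRCm38; the sources used here do not give versions, annotation, strand setting or multi-mapping rule. Each deposited value is a normalised signal of 1 gene in 1 library, its read count over the library's size factor, going by the authors' listed tools and the steps between values. Whole reads were recovered for 100% of values (tolerance 0.001).

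Genes that reached 10 in at least 2 libraries were tested on log2(value + 1) with limma 3.58.1 (eBayes with a trend, R 4.3.3), all 4 libraries in 1 fit without a replicate block, Benjamini-Hochberg threshold 0.05. edgeR 4.0.16 and DESeq2 1.42.0 were run on recovered reads as alternatives. Other alternatives changed pseudocount, filter, scaling, variance model and replicate block, corrected for GC content or exon length, and left out each library. Sums were tested by exact permutation (scipy 1.17.1). Read counts of replicates differed beyond sampling noise (chi-square per degree of freedom 27.9 for the migrasome and 17.6 for the cytosol pair, genes with at least 20 reads), so each library counted once.

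Positions, exons, 50-base windows and hairpins came from GENCODE M21. Members and gene lists were chosen with earlier results of these data known. Values in every library are given for the 3 most abundant tested members of each type, every tested H1 gene, every tested member outside Hist1 and the 5 lowest and 5 highest differences; Hist1h4f was added after its values were seen. Listed partners were named where abundant or past the threshold, with Slbp, Eri1, Npat and Upf1 throughout; some results the rule covers are left out here. On data simulated for this comparison over 10860 genes, the test called 49 of 100 genes changed 2-fold and 97 of 100 changed 4-fold, with 1 false call. The simulation drew genes independently with 1 common dispersion (0.0318), so it does not give the rate of false calls in these libraries. Figures were drawn with matplotlib 3.10.9.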

Additional observations from a re-analysis of the deposited data

How the results depend on the processing

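The 0 members called higher, the 52 negative differences and the sums below cytosol rest on 4 libraries, and single members on how reads of copies were assigned. The count of members lower was 26 as reported, and was 10 without the filter (67 members tested), 10 without the variance trend, 12 with the GC correction and 7 to 45 with 1 library left out. Over all genes, 1348 of 19077 were lower without the filter, 1671 of 10860 without the trend and 1609 of 10618 with the GC correction. The count of members lower was 25 to 39 in the other fits. With the replicate number as a block it was 40, beside a background of 24.1%; with only 2 pairs and no such label the numbers are not taken to pair the libraries (correlation of same-number deviations 0.23 over all tested genes). The members' median was -0.44 with the GC correction and -0.94 with the length correction, beside 0.15 and 0.14 for all genes. With the same total it was -1.06, beside -0.27 for all genes, whose median was 0.11 under quantile normalization. No alternative called a member higher. Over all genes, 1919 were lower as reported and 1147 to 2800 with 1 library left out; 943 were higher, against 393 without the filter, 322 with the same total, 483 without the trend, 1802 with the block, 1864 and 1721 with the length and GC corrections, and 231 to 2085 with 1 library left out. The shares of 4 types changed direction with single libraries left out, with log2 differences of -0.0157 to 0.14 for H2A, -0.0795 to 0.12 for H2B, -0.32 to 0.0890 for H3 and -0.0742 to 0.21 for H4, so none of these 4 has a settled direction. The causes of these shifts were not tested.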
